A study of Mus musculus with 15 samples.

Results

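Mitochondrial ribosomal proteins are the nuclear-encoded building blocks of the ribosome inside mitochondria. They were taken here as all genes whose annotated symbol is Mrpl or Mrps followed by a number and nothing else. The array named 73 such genes through 153 probe sets (groups of short probes against 1 transcript), out of 18193 genes with a probe set that names exactly 1 gene. Each gene was represented by its probe set of highest mean over the 15 arrays. Of the 73, 66 had a mean above the filter used for testing (a log2 level of 5.66, the median of all probe sets) and were tested among 11925 genes. The 66 comprised 44 proteins of the large subunit, 21 of the small subunit, and Mrps36. Mrps36 carries the name of a small subunit protein but encodes a subunit of the 2-oxoglutarate dehydrogenase complex, and Mrps30, despite its symbol, is a large subunit protein.

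The RNA came from foam cells (macrophages filled with lipid that build up in the lesions of atherosclerosis), cut by laser from sections of the aortic sinus, amplified by in vitro transcription and hybridised to whole-genome mouse arrays of Affymetrix. All 15 samples were from ApoE-/- mice on the C57BL/6 background, so the control group lacked apolipoprotein E as well. The 3 groups held 5 samples each: CHOW on regular chow until week 22, 14w-WD on a western-type diet for 14 weeks from week 8 to week 22, and 2w-WD on that diet for 2 weeks. The sample labels give 2w-WD 20 weeks of chow before the diet, while the series text places its diet between weeks 22 and 24, so the age of that group is uncertain. Nothing in the labels ties an array to an animal, so the p-values below reflect no more than the spread between these samples, and part of that may be technical. The comparisons ask how the transcripts of lesional foam cells differ between no, short and long exposure to the diet.

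As background, the mitochondrial ribosome translates the small set of messenger RNAs made from mitochondrial DNA, all of which encode subunits of the respiratory chain and the ATP synthase. Its small subunit reads the messenger RNA and its large subunit forms the peptide bond. The ribosomal RNAs come from mitochondrial DNA, but every protein is made in the cytosol and imported, so that both genomes have to be expressed for the particle to be assembled. Macrophages are known for shifting between glycolysis and mitochondrial respiration when they are activated or loaded with lipid.

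Macrophage markers were read first. Of 15, 14 lay above the filter (all but Itgam), as did 11925 of 18193 genes. The summed intensity of the 15 was 102210 to 134160 in CHOW, 92819 to 115370 in 2w-WD and 107870 to 126060 in 14w-WD. In 2w-WD minus CHOW, 12 of the 14 lay below 0 and 2 above (median -0.27), where 38.8% of all genes lay above 0 (median -0.10). By limma 0 passed the test, and 6 were lower at an unadjusted p under 0.05, against 7.3% of all genes. In 14w-WD minus 2w-WD, 12 of 14 lay above 0 (median 0.34), against 65.2% of all genes (median 0.23). There 1, Tyrobp, rose past the test (7.14%, against 10.1%), and 7 were higher at an unadjusted p under 0.05, against 25.9%. All 15 heart muscle markers also lay above the filter, and their summed intensity ranged from 2865 on CHOW replicate 4 to 117260 in 2w-WD. Heart muscle is rich in mitochondria, and the mean log2 level of its list per array averaged 9.38 ± 1.62 (SD, n = 5) for CHOW, 10.46 ± 1.28 for 2w-WD and 9.85 ± 0.91 for 14w-WD. The smooth muscle list had 8 of 10 markers above the filter, the fibroblast list 10 of 10, the endothelium list 5 of 10 and the lymphocyte list 5 of 9 on the array. In such mixed samples, fewer cells of a type and less RNA per cell cannot be told apart. The arrays also differed in brightness: between 20.4% and 24.7% of probe sets exceeded an intensity of 100 on the CHOW arrays, 18.2% to 25.7% on those of 2w-WD and 22.5% to 27.2% on those of 14w-WD.

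The promoters of these genes are shown first, since the members were read together as a set. RefSeq windows of 300 bases (250 before the annotated start and 50 from it on, build GRCm38.p6) were at hand for 64 of the 73 members. On both strands they were searched for 3 motifs of factors known for nuclear genes of mitochondria. The NRF1-type motif (GCGC, any base, then TGCGC) was in 12 of 64 (18.8%), against 5.19% of 27025 genes with a window and 10.4% of the tested genes with one. The ETS/GABPA-type motif CCGGAAG was in 22 (34.4%), against 9.93% and 17.5%. The YY1-type motif AANATGGC was in 20 (31.2%), against 6.96% and 9.34%. At least 1 of the 3 was in 42 (65.6%), against 19.4% and 31.7%, and in 0 member windows did matches of different motifs overlap. These shares are descriptions of letters, not of bound sites. The windows below are those of 3 members that passed the test in 14w-WD against 2w-WD, of Mrpl9 with an NRF1-type match and of Mrps12 with matches of 2 motifs, chosen after their values were seen. They run 5′ to 3′ along the gene's strand, with motif matches in capitals.

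Mrps14, small subunit, chr1:160194965-160195264, plus strand, no match: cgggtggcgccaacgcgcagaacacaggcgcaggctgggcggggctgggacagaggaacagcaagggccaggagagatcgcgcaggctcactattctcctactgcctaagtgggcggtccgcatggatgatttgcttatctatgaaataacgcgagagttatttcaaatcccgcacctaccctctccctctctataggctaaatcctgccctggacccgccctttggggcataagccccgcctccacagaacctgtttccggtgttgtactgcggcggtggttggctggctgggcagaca
Mrpl2, large subunit, chr17:46645971-46646270, plus strand, the first of 3 windows for this gene, no match: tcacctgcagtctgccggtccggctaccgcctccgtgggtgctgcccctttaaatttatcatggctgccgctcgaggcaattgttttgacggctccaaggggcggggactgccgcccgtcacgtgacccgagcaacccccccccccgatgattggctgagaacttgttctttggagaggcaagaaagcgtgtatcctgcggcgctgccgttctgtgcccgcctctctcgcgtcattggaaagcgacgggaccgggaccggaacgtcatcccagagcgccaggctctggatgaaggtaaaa
Mrpl52, large subunit, chr14:54426659-54426958, plus strand, ETS/GABPA-type on the opposite strand: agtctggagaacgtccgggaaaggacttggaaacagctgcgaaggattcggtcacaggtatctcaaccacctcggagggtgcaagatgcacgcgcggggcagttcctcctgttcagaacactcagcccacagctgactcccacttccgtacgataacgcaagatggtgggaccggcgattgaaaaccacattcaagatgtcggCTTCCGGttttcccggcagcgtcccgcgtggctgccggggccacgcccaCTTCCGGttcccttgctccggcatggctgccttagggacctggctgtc
Mrpl9, large subunit, chr3:94443086-94443385, plus strand, NRF1-type, which here reads the same on both strands: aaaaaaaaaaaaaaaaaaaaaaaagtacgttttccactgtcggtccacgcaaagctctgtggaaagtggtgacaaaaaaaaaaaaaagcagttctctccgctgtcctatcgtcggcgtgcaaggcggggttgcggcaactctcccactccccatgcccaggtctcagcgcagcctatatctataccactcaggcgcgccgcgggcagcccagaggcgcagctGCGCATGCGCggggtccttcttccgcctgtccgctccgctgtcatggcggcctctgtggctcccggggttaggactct
Mrps12, small subunit, chr7:28741772-28742071, minus strand, YY1-type on the opposite strand, then ETS/GABPA-type: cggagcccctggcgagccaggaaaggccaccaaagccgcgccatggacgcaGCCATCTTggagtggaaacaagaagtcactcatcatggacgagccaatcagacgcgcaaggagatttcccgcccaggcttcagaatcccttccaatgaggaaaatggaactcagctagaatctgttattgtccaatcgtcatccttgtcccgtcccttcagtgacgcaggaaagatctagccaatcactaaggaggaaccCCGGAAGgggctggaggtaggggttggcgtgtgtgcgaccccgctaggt

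The table of windows held none for Mrpl19. With the annotated start counted as 0, the matches began at -47 and 2 in Mrpl52, at -28 in Mrpl9, and at -199 and 1 in Mrps12. Median differences in 14w-WD minus 2w-WD were a log2 of 0.55 with the NRF1-type motif (11 tested members) and 0.48 without it (49), 0.47 with the ETS/GABPA-type motif (22) and 0.53 without (38), 0.65 with the YY1-type motif (18) and 0.47 without (42). These medians were not tested against each other. Of the factors the motifs are named for, picked here for that reason, Gabpa differed by a log2 of 0.92 (SE 0.27, limma adjusted p = 0.0379) in 14w-WD against 2w-WD, Nrf1 by 0.029 (SE 0.26) and Yy1 by -0.15 (SE 0.16).

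Taken as a group, the transcripts stood highest in 14w-WD and lowest in 2w-WD. The mean log2 level of the 66 tested members was 8.71, 8.17, 7.86, 8.12 and 7.85 on CHOW replicates 1 to 5, a mean of 8.14 ± 0.35 (SD, n = 5). On 2w-WD it was 8.62, 7.97, 7.83, 7.54 and 7.70 (7.93 ± 0.41), and on 14w-WD 8.63, 8.70, 8.55, 8.12 and 8.37 (8.47 ± 0.23). The groups overlapped: CHOW replicate 1 had the highest mean of all 15 arrays, 2w-WD replicate 1 lay among the 14w-WD arrays, and 14w-WD replicate 4 lay below CHOW replicate 2. Array brightness moved with these means. The 6 arrays with the highest member mean were the 6 with the most probe sets above an intensity of 100, and 2w-WD replicate 4 was lowest in both.

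**Figure D1:**
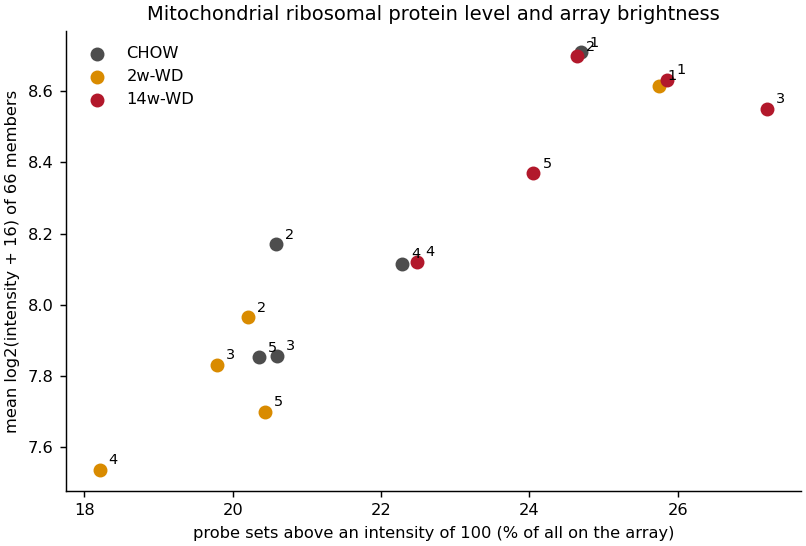
Mean log2(intensity + 16) of the 66 tested mitochondrial ribosomal protein genes (vertical axis) against the percentage of probe sets above an intensity of 100 on the array (horizontal axis). Each point is 1 of 15 arrays, coloured by diet group and numbered by replicate; the 6 arrays with the highest member mean are also the 6 brightest, among them CHOW 1 and 2w-WD 1.

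After 14 weeks of the diet compared with 2 weeks, 3 members rose and 1 fell. Mrps14 and Mrpl19, which encode proteins with bacterial counterparts, and Mrpl2, which lies close to the peptide-bond-forming centre, were higher in 14w-WD. Mrpl52, a large subunit protein found only in mitochondria, was lower. These 4 are 6.06% of the 66 tested members, against 11.2% of all 11925 tested genes called in this comparison by limma at a Benjamini-Hochberg adjusted p under 0.05 (10.1% higher and 1.15% lower). The members' share of calls was below the background, and their median difference was above it: a log2 of 0.51 for the 66 members and 0.23 for all tested genes, with 51 of 66 members (77.3%) and 65.2% of all genes above 0. At an unadjusted p under 0.05, 21 members were higher and 3 lower, where the background was 25.9% and 6.13%.

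Mrps14 encodes a small subunit protein of the kind that sits in the ribosome's head. Its log2 levels were 10.15, 9.20, 8.43, 9.62 and 9.15 in CHOW, 9.22, 7.17, 9.35, 6.41 and 7.87 on the 2w-WD arrays, and 10.43, 10.20, 10.05, 9.66 and 10.15 on the 14w-WD arrays. All 5 arrays of 14w-WD lay above all 5 of 2w-WD, whose replicates 2 and 4 were the lowest, and 14w-WD overlapped with CHOW. The difference between 14w-WD and 2w-WD was a log2 of 2.10 (SE 0.50, limma adjusted p = 0.0207). It missed the threshold without 2w-WD replicate 2 (adjusted p = 0.0568), 2w-WD replicate 4 (0.0528), 14w-WD replicate 1 (0.0639) or 14w-WD replicate 3 (0.0565), with differences from 1.70 to 2.11.

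Mrpl19, a protein of the large subunit, had log2 levels of 8.54, 7.46, 6.23, 7.67 and 5.35 in CHOW, 7.17, 6.86, 6.13, 6.32 and 6.35 on the 2w-WD arrays, and 8.72, 8.59, 8.03, 7.35 and 8.73 on the 14w-WD arrays. Every 14w-WD array exceeded every 2w-WD array, and CHOW spread over both ranges. The 14w-WD minus 2w-WD difference was a log2 of 1.72 (SE 0.48, limma adjusted p = 0.0335). Leaving out any one of 2w-WD replicates 2 to 5 or of 14w-WD replicates 1, 2, 3 and 5 brought the adjusted p to between 0.0585 (without 2w-WD replicate 5) and 0.0902 (without 14w-WD replicate 1).

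Levels of Mrpl2 were 8.51, 7.15, 6.86, 7.04 and 6.39 in CHOW, 7.85, 6.62, 5.61, 5.83 and 6.43 on the 2w-WD arrays, and 8.29, 8.55, 8.04, 6.94 and 7.56 on the 14w-WD arrays, on the log2 scale. The groups overlapped, since 2w-WD replicate 1 lay above 14w-WD replicates 4 and 5. The difference of 1.41 (SE 0.44, limma adjusted p = 0.0494) was just past the threshold and remained so without 4 of the 15 arrays when each was left out in turn (CHOW replicates 1 and 5, 2w-WD replicate 1 and 14w-WD replicate 4). Without any 1 of the other 11, the adjusted p lay between 0.0587 (CHOW replicate 4) and 0.128 (2w-WD replicate 4).

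Mrpl52 went the other way. Its brightest probe set read a log2 level of 12.82, 13.24, 12.89, 12.90 and 12.70 in CHOW, 12.99, 13.14, 13.04, 13.39 and 12.86 on the 2w-WD arrays, and 12.51, 12.82, 12.45, 12.46 and 12.35 on the 14w-WD arrays. No array of 14w-WD reached the lowest of 2w-WD, and only its replicate 2 reached the CHOW range. The difference was -0.56 (SE 0.13, limma adjusted p = 0.0204). It missed the threshold without 2w-WD replicate 2 (adjusted p = 0.0534), 14w-WD replicate 1 (0.0595) or 14w-WD replicate 3 (0.0600). The gene's 2 other probe sets above the filter differed by +0.86 and +0.71, so the direction of Mrpl52 depends on the probe set read, and the mean of its probe sets differed by 0.28.

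**Figure D2:**
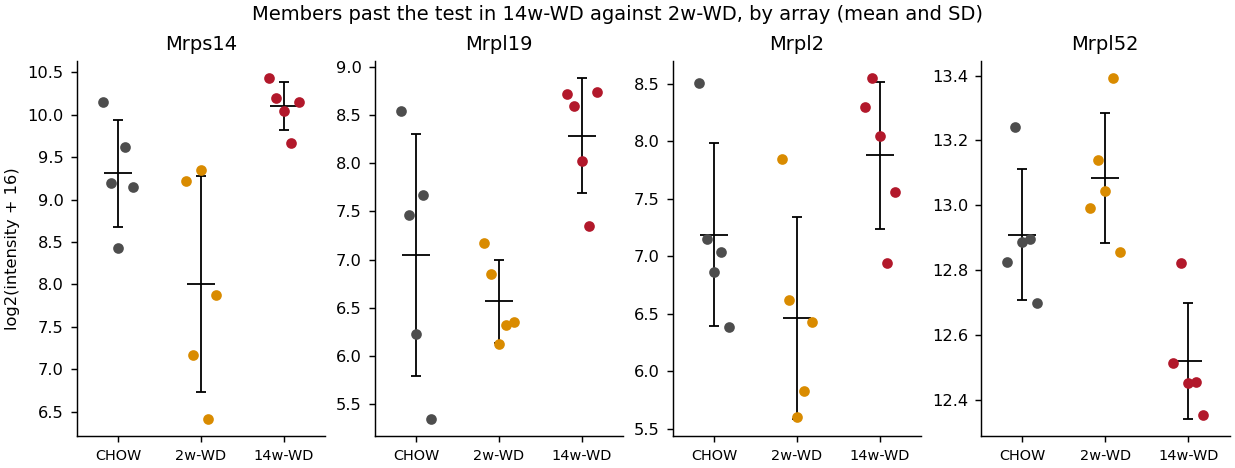
log2(intensity + 16) on each of the 15 arrays for Mrps14, Mrpl19, Mrpl2 and Mrpl52, the members with a limma adjusted p under 0.05 in 14w-WD against 2w-WD. Points are arrays, the horizontal line and bar are the mean and SD of 5 arrays, and each panel has its own axis, which does not start at 0; the 14w-WD points of Mrps14 and Mrpl19 lie above all 2w-WD points, those of Mrpl52 below, and those of Mrpl2 overlap.

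How many members passed depended on single arrays and on the weight given to them. Without 2w-WD replicate 1, the brightest array of its group, 25 members passed (23 higher and 2 lower; 37.9%, against 29.9% of all genes), and without CHOW replicate 1 it was 13 (19.7%, against 15.2%). Leaving out 14w-WD replicate 4 gave 9 (13.6%, against 13.3%). With 2w-WD replicate 2, 14w-WD replicate 1 or 14w-WD replicate 3 left out, 0 passed, where the background was 2.24%, 1.2% and 1.59%. It was 1 without 2w-WD replicate 4 (background 2.44%), and 2 without 2w-WD replicate 3, 14w-WD replicate 2 or 14w-WD replicate 5 (background 6.18%, 4.93% and 4.65%). The number of calls over all genes thus rose and fell with the same arrays. When the share of bright probe sets was added as a covariate, 0 members and 0.0% of all genes passed, and the median member difference was -0.057, beside 0.038 for all genes. That share was taken from the same intensities, and averaged 24.8% in 14w-WD and 20.9% in 2w-WD. With this covariate, a difference between the groups and one in array brightness cannot be told apart. With the mean level of the heart muscle list as a covariate, 9 passed (8 higher and 1 lower; 13.6%, against 11.8% of all genes) and the median was 0.61. The same covariate moved the median from 0.32 to 0.26 in 14w-WD against CHOW and from -0.23 to -0.35 in 2w-WD against CHOW. Fibroblast markers moved with the comparison as well as the macrophage list. Without a covariate and with all arrays, 3 of 10 passed the test as higher in 14w-WD, against 10.1% of all genes. Of the 10, 9 lay above 0 with a median of 0.76, against 65.2% of all genes and their median of 0.23. The summed intensity of the fibroblast list was 39508 to 53426 in 14w-WD against 31140 to 42230 in 2w-WD. The part of these lists in the members' difference was not tested.

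Members without overlap between 14w-WD and 2w-WD were 3 higher (Mrps14, Mrpl19 and Mrpl9; 4.55% of 66, against 7.06% of all genes) and 3 lower (Mrpl52, Mrpl41 and Mrpl50; also 4.55%, against 1.57%). Mrpl9, a large subunit protein with a bacterial counterpart, had log2 levels of 10.36, 8.93, 8.09, 9.997 and 9.26 in CHOW, 9.49, 8.63, 8.67, 7.49 and 7.43 on the 2w-WD arrays, and 9.60, 9.63, 9.62, 9.81 and 9.58 on the 14w-WD arrays. Within 14w-WD the values were far closer to each other (SD 0.092, n = 5) than in CHOW (0.90) or 2w-WD (0.87), and the difference of 1.30 (SE 0.44, limma adjusted p = 0.0628) did not pass. Mrpl50, found only in mitochondrial ribosomes, stood at 7.15, 7.31, 7.42, 7.84 and 7.93 in CHOW, 7.25, 7.99, 7.52, 7.48 and 7.78 on the 2w-WD arrays, and 6.77, 7.09, 7.24, 6.72 and 6.998 on the 14w-WD arrays. Its lowest 2w-WD array and highest 14w-WD array were nearly level, and the difference was -0.64 (SE 0.23, limma adjusted p = 0.0771). Mrpl41 read 12.05, 12.22, 12.06, 12.01 and 11.84 in 2w-WD and 11.37, 11.76, 11.37, 11.73 and 11.72 in 14w-WD, and CHOW, from 10.87 to 12.57, spanned both. For all of these lower members other probe sets went the other way. Those above the filter differed by 0.55 for Mrpl41 and by 0.86 and 0.71 for Mrpl52. The other probe set of Mrpl50 lay below the filter and differed by 0.56. The lower direction of these members therefore holds for their brightest probe sets.

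By subunit, 20 of 21 small subunit members (95.2%) and 30 of 44 large subunit members (68.2%) had a 14w-WD minus 2w-WD difference above 0. Over all tested genes that share was 65.2%. The medians were 0.67 and 0.47, beside 0.23 for all genes. Past the test were 1 small subunit member (Mrps14 higher, 4.76%) and 3 large subunit members (Mrpl19 and Mrpl2 higher, Mrpl52 lower, 6.82%). Both shares lay below the 11.2% of all genes. Mrps6 was the small subunit member below 0 (-0.21, SE 0.22). Split by ancestry instead, the 41 members with a bacterial counterpart and the 24 found only in mitochondria had the same median of 0.52. All 3 members that rose were among the former (7.32% called) and Mrpl52 among the latter (4.17% called). None of these splits was tested.

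**Figure D3:**
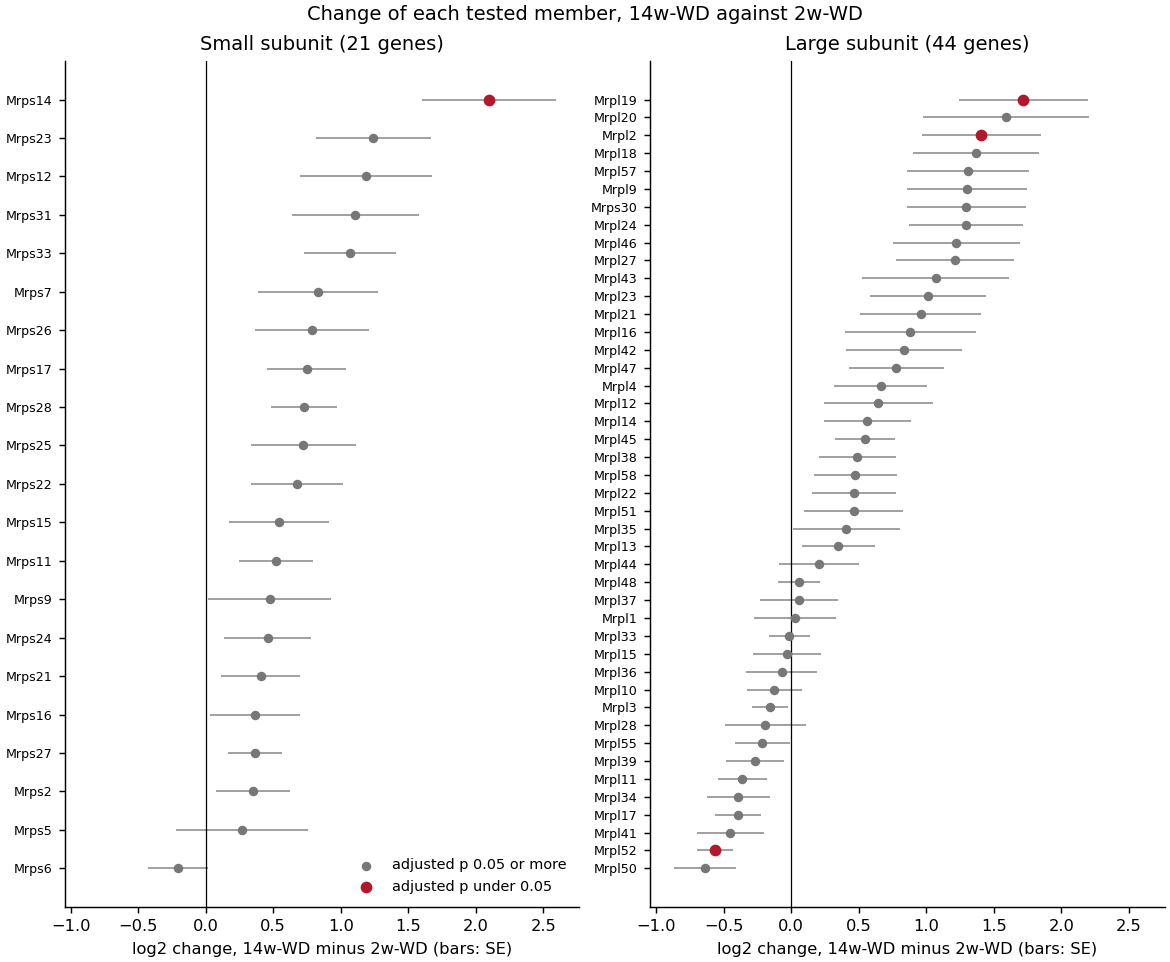
Difference in log2(intensity + 16), 14w-WD minus 2w-WD, of each of 65 tested members of the mitochondrial ribosome, with the small subunit (21 genes) and the large subunit (44 genes) in separate panels. Points are limma estimates, bars are 1 SE to each side, and red marks an adjusted p under 0.05; 20 small subunit and 30 large subunit genes lie to the right of 0.

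The brightness of a probe set went with the size of its difference in all genes. The members were therefore set beside the tested genes in the same broad range of brightness. Within a range, levels of members and other genes were not matched. In the 22 dimmest members (mean log2 level under 7.02) the median difference was 0.56, against 0.10 in the 6174 tested genes of that range. For the 22 of middle brightness it was 0.74 against 0.53 in 2295 genes, and for the 22 brightest (8.05 and above) 0.28 against 0.31 in 3456 genes. The calls fell on 0 dim members, 2 of middle brightness (Mrpl19 and Mrpl2) and 2 bright ones (Mrps14 and Mrpl52). In the same ranges the background share of called genes was 10.6%, 16.8% and 8.59%.

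**Figure D4:**
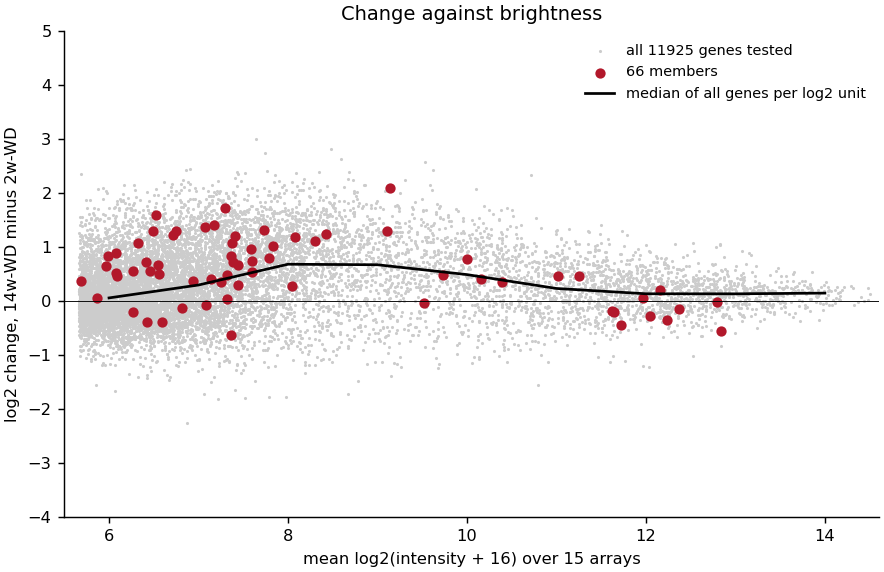
Difference in log2(intensity + 16), 14w-WD minus 2w-WD, against the mean log2 level over 15 arrays for all 11925 tested genes (grey), with the 66 members in red. The black line is the median of all genes in each log2 unit of level; most red points below a level of 8 lie above 0, and those beyond 11 lie on both sides of 0, from -0.56 (Mrpl52) to 0.46 (Mrpl51).

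Among the members named by rule for what they do, none other passed in 14w-WD against 2w-WD. Mrps12, whose bacterial relative sets the accuracy of decoding, averaged 7.54 ± 0.91 (SD, n = 5) with 2w-WD and 8.72 ± 0.36 with 14w-WD (difference 1.19, SE 0.49). Mrpl12, the factor-binding stalk protein that has also been found on the mitochondrial RNA polymerase, stood at 5.62 ± 0.78 and 6.26 ± 0.71 (0.64, SE 0.40). Mrps7 and Mrps28 of the small subunit differed by 0.83 (SE 0.45) and 0.73 (SE 0.24). Mrps22, in which inherited defects affect the heart, differed by 0.67 (SE 0.34), and Mrps30 by 1.30 (SE 0.44, limma adjusted p = 0.0617). Mrpl47 differed by 0.78 (SE 0.35), while Mrpl3, a core protein near the catalytic centre, and Mrpl44, also a heart disease gene, differed by -0.16 (SE 0.13) and 0.21 (SE 0.30). Mrps36, which is not part of the ribosome, differed by 0.30 (SE 0.43). The brightest members, Mrpl52, Mrpl33, Mrpl3, Mrpl11 and Mrpl44, had mean levels of 12.02 or more in every group, but brightness is a property of each probe set as well as of its transcript, and levels were not compared between genes.

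Against CHOW, 14 weeks of the diet left no member past the test: 0 of 66 by limma, against 0.00839% of all genes (1 gene). At an unadjusted p under 0.05, 7 members were higher and 3 lower, against a background of 11.2% and 4.65%. The median member difference was 0.32, beside 0.16 for all genes, and 52 of 66 members (78.8%) lay above 0, beside 65.6% of all genes. This comparison shares the 14w-WD arrays with the one above and the CHOW arrays with the one below. Without CHOW replicate 1 the median was 0.54, and with the share of bright probe sets as a covariate it was -0.12.

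The members with the smallest p on the higher side were Mrpl42, Mrpl19 and Mrps17. Mrpl42 read 7.69, 6.71, 6.56, 6.84 and 6.66 in CHOW and 8.11, 8.52, 8.30, 7.13 and 8.01 in 14w-WD, a difference of 1.12 (SE 0.43, limma adjusted p = 0.232). CHOW replicate 1 and 14w-WD replicate 4 were the arrays that overlapped. Mrpl19 differed by 1.24 (SE 0.48) and Mrps17 by 0.70 (SE 0.29), with limma adjusted p-values of 0.234 and 0.263. The other probe sets above the filter went the other way for Mrpl42 (-0.12) and Mrpl19 (-0.17). Mrps9, a small subunit protein, read 9.22, 8.55, 8.59, 9.63 and 9.97 in CHOW and 10.15, 10.18, 10.38, 10.31 and 10.17 in 14w-WD. It was 1 of 3 members without overlap on the higher side (4.55%, background 3.09%), with Mrpl47 and Mrps36. Mrps36 averaged 6.88 ± 0.42 (SD, n = 5) with CHOW and 7.87 ± 0.17 with 14w-WD (0.99, SE 0.43, limma adjusted p = 0.278).

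On the lower side the smallest p-values belonged to Mrpl17, Mrpl52 and Mrpl50, with differences of -0.54 (SE 0.17), -0.39 (SE 0.13) and -0.57 (SE 0.23) and limma adjusted p-values of 0.163, 0.196 and 0.257. Mrpl17, a large subunit protein with a bacterial counterpart, read 6.44, 6.52, 6.79, 6.69 and 6.83 in CHOW and 6.07, 6.08, 6.37, 6.06 and 6.01 in 14w-WD. It was the 1 member without overlap on the lower side (1.52%, background 1.79%). This rests on its brightest probe set, with a mean level of 6.43. Another, with a mean of 6.39, differed by 0.54 in the same comparison, and the remaining probe set above the filter by -0.45. For Mrpl52 the other probe sets above the filter differed by 0.42 and 0.081.

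After 2 weeks of the diet compared with CHOW, 0 of 66 members passed by limma, as did 0.0% of all genes. At an unadjusted p under 0.05, 0 members were higher and 2 lower (Mrps14 and Mrpl9), against a background of 2.47% and 7.3%. The median member difference was -0.23, beside -0.10 for all genes, and 18 of 66 members (27.3%) lay above 0, beside 38.8%. In no member did the groups fail to overlap, where the background was 0.294% on the higher and 0.83% on the lower side. The median was -0.051 without CHOW replicate 1, -0.13 without 2w-WD replicate 4 and -0.37 without 2w-WD replicate 1, beside -0.081, -0.048 and -0.16 for all genes. Without CHOW replicate 1 the members' median was therefore no longer below that of all genes.

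Mrps14, Mrpl9 and Mrpl21 had the smallest p on the lower side, with differences of -1.30 (SE 0.50), -0.98 (SE 0.44) and -0.86 (SE 0.45) and limma adjusted p-values of 0.492, 0.511 and 0.536. Mrpl21 read 9.18, 8.06, 6.55, 8.31 and 7.12 in CHOW and 7.13, 6.56, 8.00, 5.96 and 7.25 in 2w-WD, which overlapped widely. On the higher side stood Mrpl41 (0.49, SE 0.25), Mrps6 (0.41, SE 0.22) and Mrpl34 (0.39, SE 0.23), with limma adjusted p-values of 0.530, 0.539 and 0.574. Other probe sets above the filter went the other way for Mrpl41 (-0.018), Mrpl34 (-0.50) and Mrpl21 (0.23). They went the same way for Mrps14 (-0.87) and Mrpl9 (-0.42). Over the 3 groups at once, limma's F test passed 0 of 66 members (smallest adjusted p = 0.0552, Mrpl52), against 2.62% of all genes. At an unadjusted p under 0.05 it was 19 members, against 25.5% of all genes.

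Below the filter lay 7 members, which were not tested: Mrpl49, Mrps34, Mrpl40, Mrpl32, Mrps10, Mrpl54 and Mrps35. Their group means ran from 4.98 to 6.07. Mrpl32 had 5.19 under CHOW, 5.05 under 2w-WD and 6.07 under 14w-WD, and Mrpl40 had 5.31, 5.08 and 5.95, so both stood above the filter level in 14w-WD alone, as did Mrps34 with 5.28, 5.53 and 5.74. The member just below the filter was Mrpl49, with 5.78, 5.19 and 5.78, and the one just above it was Mrps27, with 5.58, 5.56 and 5.93.

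Many members had further probe sets, and these did not always move with the one that represented the gene. Of the tested members, 27 had 41 other probe sets above the filter. In 14w-WD minus 2w-WD, 21 of the 41 had the sign of the gene's brightest probe set and 20 the opposite sign. In 2w-WD minus CHOW the split was 23 and 18, and in 14w-WD minus CHOW 21 and 20. The median difference of the 41 in 14w-WD minus 2w-WD was 0.44, and 27 of them lay above 0.

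Disagreement reached the members that passed the test. Mrpl19 was represented by a probe set that differed by 1.72, while its other one above the filter differed by -0.78. For Mrps14 the other probe set differed by 0.18, beside 2.10. Mrpl2 had a single probe set. Among members that did not pass, Mrpl17 (-0.39 for its brightest probe set) had others at 1.11 and -0.30, Mrpl28 (-0.19) had others at 1.18 and -0.17, and Mrpl48 (0.059) had others at 1.41 and -0.24. Mrps24 (0.46) and Mrps9 (0.47) had others of the same sign, at 1.47 for Mrps24 and at 1.15, 0.78 and 0.29 for Mrps9. Which transcript ends or related sequences each probe set reads was not tested.

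**Figure D5:**
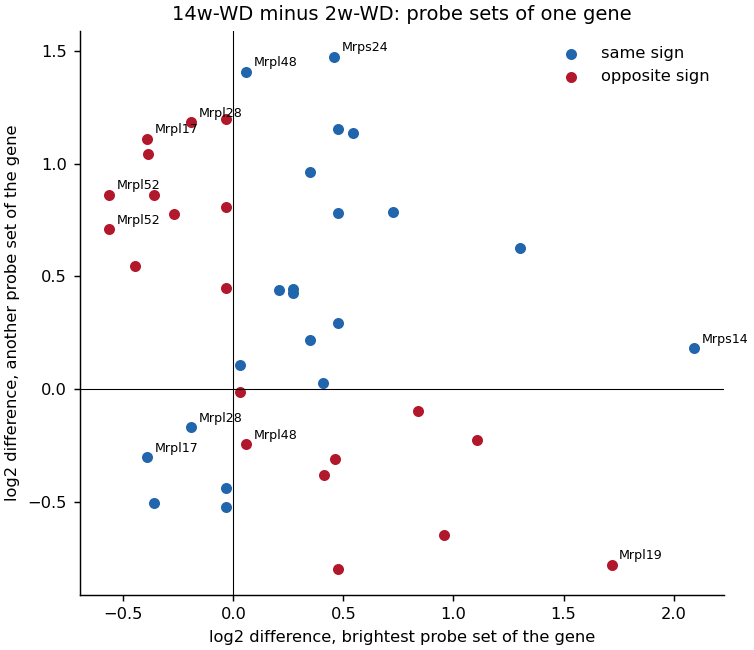
Difference in log2(intensity + 16), 14w-WD minus 2w-WD, of the 41 other probe sets above the filter (vertical axis) against that of the brightest probe set of the same gene (horizontal axis), for 27 tested members. Blue marks the same sign (21 probe sets) and red the opposite sign (20), with Mrpl52, Mrpl19 and Mrpl17 among the latter.

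The rest of the mitochondrial translation machinery was read from gene lists. As the background in 14w-WD against 2w-WD, 10.1% of all tested genes rose past the test and 1.15% fell. Of all tested genes 65.2% lay above 0, with a median of 0.23. Differences between the lists and this background were not tested. Among 5 tested ribosomal proteins that go by other symbols, Mrps18b and Mrps18c, related proteins of the small subunit, rose in 14w-WD against 2w-WD, by 1.58 (SE 0.46, limma adjusted p = 0.0387) and 2.05 (SE 0.53, limma adjusted p = 0.0270). All 5 lay above 0, with a median of 1.14, and 40.0% rose past the test. Of 13 genes listed for translation, not all of them translation factors, 2 rose (15.4%). These were Mtrf1l, a release factor (1.21, SE 0.35), and Lrpprc, which stabilises mitochondrial messenger RNAs (0.98, SE 0.28). The median of the 13 was 0.16. Of 22 genes for ribosome assembly and ribosomal RNA modification 3 rose (13.6%). They were Ngrn (1.57, SE 0.37) and the pseudouridine synthase Rpusd4 (1.10, SE 0.32), which act on the large subunit's ribosomal RNA, and the methyltransferase Trmt61b (1.495, SE 0.46). In that list 20 of 22 (90.9%) lay above 0, with a median of 0.58.

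Of 18 genes listed for the charging of transfer RNAs, 1 rose (5.56%, against 10.1% of all genes). The list holds aminoacyl-tRNA synthetases and the amidotransferase genes Qrsl1, Gatb and Gatc. The gene that rose was Gars, which serves both the cytosol and the mitochondrion (1.53, SE 0.36, limma adjusted p = 0.0206). The median of the list was 0.39. Of 12 genes for transcription and maintenance of mitochondrial DNA 0 passed by limma, with a median of 0.43. At an unadjusted p under 0.05, 2 of the 12 were higher (Polg at 0.99 and Top1mt at 0.92), against 25.9% of all genes. Among 17 regulators of mitochondrial biogenesis, Pprc1, a coactivator related to PGC-1, rose by 1.76 (SE 0.51) beside Gabpa (11.8% of the list), and the median was 0.29. In these 6 lists no gene fell past the test in 14w-WD against 2w-WD, where the background was 1.15%. At an unadjusted p under 0.05, 3 were lower, against 6.13% of all genes: 1 of 13 genes listed for translation, 2 of 17 regulators and 0 in the other lists. They were Oxa1l, which inserts proteins into the inner membrane (-0.74, SE 0.31), and the kinase genes Prkaa2 (-0.99, SE 0.32, limma adjusted p = 0.0509) and Mtor (-0.81, SE 0.26, limma adjusted p = 0.0528). In the other comparisons 0 genes of them passed by limma, where the smallest adjusted p was 0.133.

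Cytosolic ribosomal proteins and the nuclear-encoded respiratory chain were the nearest groups to set beside the members. Of 40 tested cytosolic ribosomal proteins, 2 rose and 0 fell in 14w-WD against 2w-WD (5.0%), with a median of 0.19 and 33 of 40 (82.5%) above 0. Of 75 genes of the respiratory chain and ATP synthase, 0 passed by limma (6 higher and 2 lower at an unadjusted p under 0.05), with a median of -0.076 and 33 of 75 (44.0%) above 0. Over all tested genes 11.2% passed, 65.2% lay above 0 and the median was 0.23. At an unadjusted p under 0.05 the background was 25.9% higher and 6.13% lower. In 2w-WD against CHOW the medians were -0.23 for the members, -0.13 for the cytosolic ribosomal proteins and 0.13 for the respiratory chain. In 14w-WD against CHOW they were 0.32, 0.065 and 0.13. Transcripts of the respiratory chain are abundant in heart muscle. The median difference of the heart muscle list against CHOW was 1.13 after 2 weeks of the diet and 0.77 after 14 weeks, beside -0.10 and 0.16 for all genes. Of its 15 genes 13 and 12 lay above 0, and 0 passed by limma. After 14 weeks they ran from -2.23 (Myl2) to 2.12 (Myl7). The part of heart muscle in the medians of the other lists, and the differences between the lists, were not tested.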

How the data were processed

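Lesional macrophages were captured by laser in 15 samples, and 15 µg of amplified, biotin-labelled RNA were hybridised, per the labels' protocols. The table deposited by the authors holds 1 linear intensity per probe set and array for 45037 probe sets; their way of summarising and normalizing it was not given in the sources used here. Through GEO's array annotation 34945 probe sets named 1 gene, 932 several and 9160 none, and 34741 matched the RefSeq gene table, with 0 symbols to update. Intensities became log2(intensity + 16), so that differences of dim genes are understated. Genes with a mean under the median over all probe sets (an intensity of 34.6) were left out. The tests were those of limma 3.58.1 (lmFit, then eBayes with a trend) under R 4.3.3 for the 15 arrays in 3 groups, two-sided, with Benjamini-Hochberg adjustment over 11925 genes at 0.05. Beforehand the fit was run on simulated data with independent noise in each gene. That run held no differences in array brightness, so it could not show how these affect the calls. Array pairs correlated at 0.867 to 0.980 over genes, and 0 pairs were identical. For arrays, their number limits the precision.

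The members, gene lists and motifs were chosen with earlier results of these data known. Named with values were, per comparison, members past the test or otherwise the 3 of smallest p in each direction, the 5 brightest and 5 dimmest members, those next to the filter, and Mrpl12, Mrps12, Mrps7, Mrpl3, Mrpl44, Mrps22, Mrps30, Mrps36, Mrpl47 and Mrps28; in pathway lists, up to 4 past the test or otherwise the 2 of smallest p. Other names (those without overlap, with disagreeing probe sets or in a motif's name) were chosen after their values were seen. Promoter windows were taken from RefSeq (GRCm38.p6). Replicate numbers come from the sample titles. Of 15 same-numbered pairs of arrays across groups, 7 had deviations correlating above 0.1 (from -0.17 to 0.48), so the numbers were not taken to pair the samples. The alternatives tried were pseudocounts of 1 and 64, no filter, quantile normalization, median centring, array weights, the mean of a gene's probe sets, a replicate block, 2 groups only, heart muscle level or bright share as a covariate, no trend and leaving out each array.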

Additional observations from a re-analysis of the deposited data

Results flagged for a closer look

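In each diet group of 5 arrays, the array farthest from the others was compared with the group's whole range for the 32 named members and the members' mean, 99 groups in all. In 9 of them the gap made up more than 0.71 of the range, where chance alone would flag about 1 in 20 independent groups. The 99 groups are not independent, since they share the same arrays, and some members were named for their values. The count of 9 was therefore not tested against chance. CHOW replicate 1 accounted for 4 of the 9. It stood high for Mrpl12 (7.17, the others 5.60 to 5.95), Mrpl42 (7.69, the others 6.56 to 6.84) and Mrps22 (8.23, the others 5.95 to 6.40), and low for the bright probe set of Mrpl33 (12.2, the others 12.8 to 12.9). In 2w-WD, replicate 1 stood high for Mrpl12 as well (6.96, the others 4.91 to 5.48). CHOW replicate 2 stood high for Mrpl11 (12.88, the others 11.95 to 12.17). In 14w-WD, replicate 3 was high for Mrpl17 (6.37, the others 6.01 to 6.08), and replicate 4 was low for Mrpl21 (7.25, the others 8.03 to 8.21) and high for Mrpl9 (9.81, the others 9.58 to 9.63). All values are log2(intensity + 16).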

How the results depend on the processing

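The median member difference kept its direction in 2w-WD against CHOW under all alternatives run (-0.37 to -0.05 when single arrays were left out), but minus that of all genes it turned to 0.030 without CHOW replicate 1. In 14w-WD against CHOW (0.26 to 0.54 without single arrays) and against 2w-WD (0.45 to 0.73) it turned with the share of bright probe sets as a covariate, to -0.12 and -0.057. Members past the test in 14w-WD against 2w-WD numbered 33 of 66 when arrays were weighted (against 32.2% of all genes), 28 without the 3 that got the lowest weight (43.1%, against 26.8%; these were CHOW replicate 1 and 2w-WD replicates 1 and 4, a choice made after seeing the data), 9 with 2 groups only (13.6%, against 12.2%), 9 with the heart muscle covariate (13.6%, against 11.8%), 0 with the bright share covariate (0.0% of all genes) and 0 to 25 without single arrays (1.2% to 29.9% of all genes). In 14w-WD against CHOW, array weights gave 21 (31.8%, against 18.7%) and the 3 arrays left out 14 (21.5%, against 11.2%). For the F test, array weights gave 30 (45.5%, against 30.2%), the 3 arrays left out 24 (36.9%, against 20.6%), median centring 1 (1.52%, against 2.19%), and single arrays left out 0 to 15 (0.0419% to 19.0% of all genes). The cause of these shifts was not tested. With the replicate number as a block, 15 members passed in 14w-WD against 2w-WD (22.7%, against 17.8% of all genes) and 8 in the F test (12.1%, against 8.35%). The median correlation of same-numbered arrays was 0.087, against -0.024 for other pairs, and 6 of 15 arrays matched best an array of their own number in another group; as not every pair exceeded 0.1, the block was kept as an alternative.

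Over the 28 alternatives, the adjusted p in 14w-WD against 2w-WD ran from 0.00273 to 0.615 for Mrps14 (under 0.05 in 23), from 0.00763 to 0.539 for Mrpl52 (23), from 0.00313 to 0.728 for Mrpl19 (17) and from 0.00258 to 0.907 for Mrpl2 (11). With the mean of a gene's probe sets, Mrpl52 turned to 0.28, Mrpl19 went from 1.72 to 0.15 and Mrps14 from 2.10 to 0.63, while Mrpl2 stayed at 1.41. Mrpl17 turned to 0.72 with a pseudocount of 64 and to 1.11 without CHOW replicate 3 or 5, because another of its probe sets then had the highest mean, and ran from -0.46 to 1.20 over the single arrays left out; against CHOW it ran from -0.60 to 0.54. Quantile normalization moved the median of all genes in 14w-WD against 2w-WD from 0.23 to 0.0071 and the share of higher among called genes from 89.8% (1338 genes) to 69.0% (928). It moved the median of the members to 0.28. The members' median minus that of all genes was 0.28 before and 0.27 after it, 0.44 with array weights, 0.17 with the mean of probe sets and -0.096 with the bright share covariate.

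The deposited table gives no background or detection value for a probe set, so levels near the filter were not set against background.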
